A study of Mus musculus with 16 samples.

Results

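The glycolysis and hypoxia genes are 38 listed genes of glucose uptake, glycolysis, lactate handling, oxygen sensing and the response to low oxygen. They were chosen by symbol, and a gene counted as measured where a probe set of the array carried that symbol and no other. By this rule 35 of the 38 were measured, among 18194 genes in all, and the probe set with the highest mean over all arrays stood for each. Bnip3l was left out because its 3 probe sets also carry the symbol of a pseudogene, and Gpi1 and Eno1 were not analysed here.

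The samples are RNA of sorted peritoneal cells of female C57BL/6N mice, on 16 mouse genome arrays with 45101 probe sets each. All mice, controls included, received 1 mg tamoxifen by gavage at 8 to 12 weeks of age, and 3 weeks later ID8-luc cells, a luciferase-carrying mouse ovarian cancer line, into the peritoneal cavity. After 4 weeks of tumour growth the lavage was sorted for CD45+, CD11b+ and F4/80+ cells, called tumour-associated macrophages, and split on surface CCR2, the receptor by which monocytes follow chemokines. The genotypes were control and RbpjiΔEC, in which Rbpj, the DNA-binding partner of Notch receptors, is removed from endothelial cells, which are not the cells measured. The 4 groups of 4 arrays were CCR2+ control, CCR2+ RbpjiΔEC, CCR2- control and CCR2- RbpjiΔEC. The labels do not say whether each array came from its own mouse, so the p-values measure the spread between these samples, which may be technical.

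Cells take up glucose through facilitative transporters, trap it with hexokinases and split it in glycolysis, whose end product pyruvate is either oxidised in mitochondria or reduced to lactate and exported. In low oxygen the prolyl hydroxylases that mark hypoxia-inducible factor (HIF) for destruction through the VHL protein slow down, and HIF then raises transporters, glycolytic enzymes and many other genes. Macrophages activated by inflammatory stimuli lean on glycolysis, and so do activated lymphocytes.

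Levels are log2 intensities after quantile normalization over the 16 arrays, each tied to its own probe set, so levels of different genes cannot be ranked against each other. Probe sets for bacterial trp, a sequence absent from mouse RNA, read 6.35 to 6.51, and levels close to it mark the floor of the scale. The columns labelled CCR2- differ in kind from those labelled CCR2+: 100% of their deposited values are whole multiples of 1 over a divisor of at most 22, against 2.58% to 2.91%, and their means are 481 to 762 against 821 to 827. Sort label and this difference cannot be told apart. The labelled cell type did not hold alike in both sorts. Adgre1, which encodes F4/80, read 13.25 ± 0.14 (SD, n = 4) in CCR2+ control arrays and 9.21 ± 0.24 in CCR2- control arrays. All 20 measured markers of large peritoneal macrophages, which reside in the cavity, were higher in the CCR2+ arrays, with a summed intensity of 141546 to 160250 against 6843 to 8642 in control mice. All 16 measured B cell markers were lower, with a summed intensity of 4597 to 4893 against 79106 to 84485 in control mice, and Fcmr was the one of them at or under the trp control in CCR2+ control arrays. Of 9 measured dendritic cell markers 7 were lower and 0 higher in CCR2+ control arrays at a limma adjusted p under 0.05. That is 77.8%, against 40.8% of all genes called. In RbpjiΔEC mice 5 were lower and 0 higher, 55.6% against 39.1%. Ccr2 mRNA went against the labels in control mice, at 7.99 ± 1.05 in the arrays labelled CCR2+ and 9.99 ± 1.08 in those labelled CCR2- (SD, n = 4 each, limma adjusted p = 0.0184). In RbpjiΔEC mice it read 7.69 ± 0.47 and 8.94 ± 1.32, which did not pass (limma adjusted p = 0.135). The part that these cell type differences have in the results between labels was not tested. Bulk RNA cannot tell fewer cells of a type from less RNA per cell.

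Between the sort labels the glycolysis and hypoxia genes went both ways, also within several roles. In the arrays labelled CCR2+ the glucose transporter genes Slc2a1 and Slc2a3 were lower and all 3 hexokinases higher in both genotypes. Of 8 genes of lower glycolysis 5 were higher and 2 lower in control mice, and 3 and 2 in RbpjiΔEC mice. Without CCR2- Control 1 and 3, arrays picked after seeing the data, 4 of the 5 higher calls in control mice ended. The phosphofructokinase step, oxygen sensing and hypoxia-induced genes held calls in both directions. In oxygen sensing the lower call was that of Hif1a alone, whose sign turned under median centring. In control mice 19 of the 35 genes were higher and 10 lower at a limma adjusted p under 0.05, which is 82.9% of them, while 40.8% of all 18194 genes passed (19.4% higher and 21.4% lower). In RbpjiΔEC mice 16 were higher and 12 lower, 80% of the 35, against 39.1% of all genes (18.1% higher and 21.0% lower). The shares of all genes, here and below, take in dim genes and were not matched to the 35 genes for brightness. Of the 35 genes 0 had a group mean at or under the highest trp reading in any group. The part of brightness in the gap between these shares was not tested. The median difference of the 35 genes was 0.39 in control and 0.21 in RbpjiΔEC mice, and that of all genes was -0.03 in both. Under median centring in place of quantile normalization these medians of the 35 genes became 0.83 and 0.55. The -0.03 of all genes belongs to quantile normalization and is not the counterpart of these values. Median centring changed the counts to 21 higher and 8 lower in control and 19 and 9 in RbpjiΔEC mice. The calls of all genes then split into 4390 higher and 2614 lower in control mice, in place of 3532 and 3891, and into 3518 and 2853 in RbpjiΔEC mice, in place of 3290 and 3817. Without CCR2- Control 1 and 3, a setting added after seeing the data, 14 of the 35 genes were higher and 10 lower in control mice, with a median of 0.23. Fewer arrays make calls harder for all genes, and no count of all genes is given here for that setting. All differences below are CCR2+ minus CCR2- arrays on the log2 scale unless said otherwise, and all adjusted p are limma's with Benjamini-Hochberg adjustment over 18194 genes.

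Of the 35 genes 16 were higher in both genotypes and 10 lower in both. Calls shared by both genotypes were not counted over all genes, so these counts only describe the 35. Aldoa, Tpi1 and Higd1a passed in control mice alone, Slc16a1 and Ndrg1 in RbpjiΔEC mice alone, and Pfkp, Pfkfb3, Pgk1 and Kdm3a in neither. No difference between the genotypes in these label differences passed the test. The 4 arrays of each label did not overlap for 28 of the 35 genes in control mice, against 37.4% of all genes, and for 27 in RbpjiΔEC mice, against 38.2%. The labels differed at least 2-fold for 16 of the 35 genes in each genotype, against 13.9% of all genes in control and 13.4% in RbpjiΔEC mice.

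**Figure D1:**
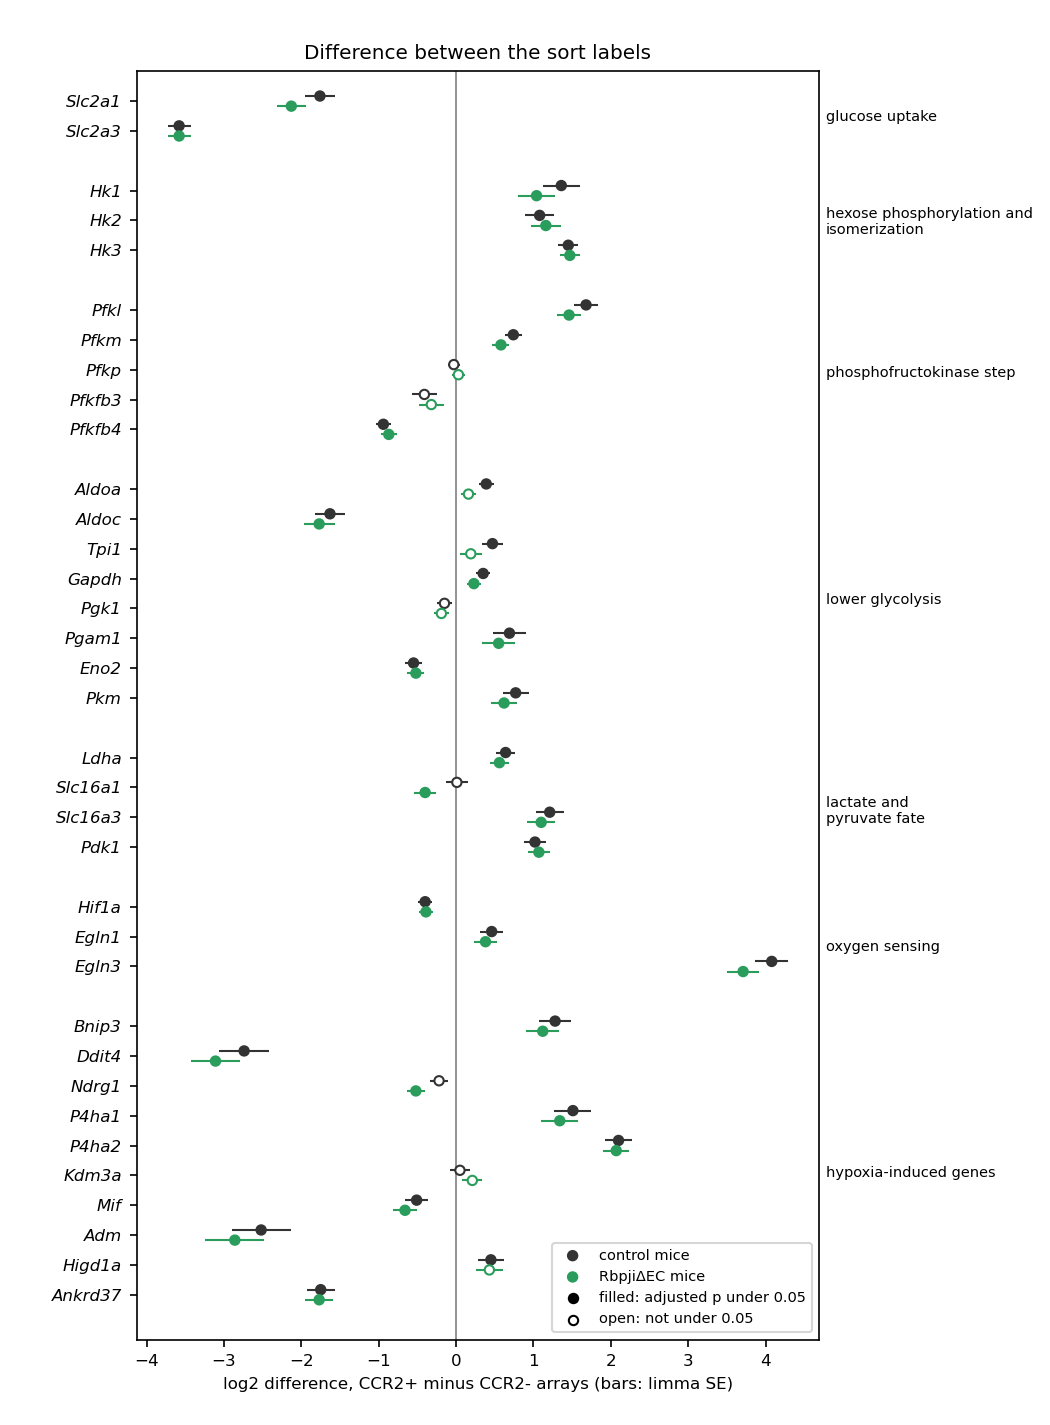
Log2 difference between CCR2+ and CCR2- arrays for the 35 measured genes, in control and in RbpjiΔEC mice, grouped by role. Points are differences of means over 4 arrays a group, bars are limma standard errors, and filled points have an adjusted p under 0.05. Slc2a3 lies farthest to the left in control mice at -3.58 and Egln3 farthest to the right at 4.08.

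Promoters of the 35 genes were searched for the core of the hypoxia response element, the short sequence that HIF binds. The motifs were ACGTG and GCGTG, which read CACGT and CACGC from the other strand, in the 250 bases before each start in RefSeq's annotation of GRCm38.p6. Matches can overlap, as in CACGTG, which holds ACGTG on both strands. RefSeq's table held 46 promoters for 33 of the 35 genes, all but Slc2a3 and Ndrg1. ACGTG occurred in 50% of these promoters and in 16.6% of all 32851, GCGTG in 52.2% and 28.2%, and at least one of them in 78.3% and 38.6%. The promoters of the listed genes also held more CG pairs, which both motifs contain, with a median of 14 against 6. Of the 28 promoters of genes higher in CCR2+ control arrays 78.6% held a motif, and of the 10 of genes lower there 80% did. These shares count promoters, and some genes had several, which can overlap. Counted by gene, 18 of 19 higher and 7 of 9 lower genes held a motif, against 11226 of all 27025 genes with promoters. Genes with several promoters have more chances of a match. A match describes letters, not binding.

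The promoters shown belong to the 2 genes with the largest positive and the 3 with the largest negative differences in control mice, among those with 1 promoter in the table. They let the motifs be read in genes that differed in opposite directions. They lie at chr12:54203875-54204124 on the minus strand (Egln3), chr11:54100674-54100923 on the plus strand (P4ha2), chr10:59951771-59952020 on the minus strand (Ddit4), chr7:110627407-110627656 on the plus strand (Adm) and chr4:119108495-119108744 on the plus strand (Slc2a1). They read 5′ to 3′ on the gene's strand up to the base before the start, and capitals mark the motifs.
Egln3: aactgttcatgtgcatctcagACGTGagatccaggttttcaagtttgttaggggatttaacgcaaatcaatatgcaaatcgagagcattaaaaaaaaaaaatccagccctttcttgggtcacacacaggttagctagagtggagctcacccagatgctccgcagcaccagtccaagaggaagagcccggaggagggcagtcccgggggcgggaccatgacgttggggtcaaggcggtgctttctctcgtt
P4ha2: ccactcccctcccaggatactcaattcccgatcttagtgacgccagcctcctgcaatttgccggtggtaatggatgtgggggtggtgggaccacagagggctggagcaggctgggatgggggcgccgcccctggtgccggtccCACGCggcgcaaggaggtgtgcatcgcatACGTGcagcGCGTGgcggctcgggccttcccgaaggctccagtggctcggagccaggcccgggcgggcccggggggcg
Ddit4: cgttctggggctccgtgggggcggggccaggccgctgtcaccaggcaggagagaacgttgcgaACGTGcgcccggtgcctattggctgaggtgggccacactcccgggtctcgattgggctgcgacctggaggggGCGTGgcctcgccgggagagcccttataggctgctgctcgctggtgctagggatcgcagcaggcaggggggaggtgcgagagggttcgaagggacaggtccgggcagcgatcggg
Adm: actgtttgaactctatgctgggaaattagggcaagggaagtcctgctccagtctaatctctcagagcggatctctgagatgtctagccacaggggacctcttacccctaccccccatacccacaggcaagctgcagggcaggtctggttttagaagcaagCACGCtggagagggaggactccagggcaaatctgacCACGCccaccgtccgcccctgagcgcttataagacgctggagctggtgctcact
Slc2a1: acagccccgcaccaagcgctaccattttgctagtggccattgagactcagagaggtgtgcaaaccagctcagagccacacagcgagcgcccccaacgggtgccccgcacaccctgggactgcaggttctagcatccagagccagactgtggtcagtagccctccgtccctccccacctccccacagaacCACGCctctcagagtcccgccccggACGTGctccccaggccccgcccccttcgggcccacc

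Slc2a1 and Slc2a3, the glucose transporter genes among the 35, were lower in the CCR2+ arrays, while 4 other genes of that transporter family (Slc2a5, Slc2a6, Slc2a8 and Slc2a9) were higher in both genotypes. Slc2a2, at or under the trp control in every group, and Slc2a4 passed in neither genotype. Slc2a1, which encodes the widely expressed transporter GLUT1, read 9.96, 9.12, 9.58 and 9.97 in CCR2+ control arrays 1 to 4 and 11.03, 11.59, 11.16 and 11.87 in CCR2- control arrays. The RbpjiΔEC arrays read 9.47, 9.34, 9.27 and 9.12 against 11.39, 11.55, 11.38 and 11.39. All 8 CCR2+ arrays lay below all 8 CCR2- arrays. The difference was -1.76 (SE 0.19, adjusted p = 9.35e-07), or 3.38-fold, in control mice and -2.13 (adjusted p = 9.06e-08), or 4.36-fold, in RbpjiΔEC mice, and its 3 probe sets ranged from -1.92 to -1.46 in control mice.

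Slc2a3, which encodes GLUT3, a transporter of high affinity for glucose, had the largest negative measured difference of the 35 genes in both genotypes. It read 6.64, 6.90, 6.85 and 6.28 in CCR2+ control arrays and 10.67, 10.12, 10.22 and 9.98 in CCR2- control arrays. The CCR2+ arrays sat near the floor of the scale while the CCR2- arrays lay far above it. The difference was -3.58 in both genotypes (SE 0.15, adjusted p = 5.44e-12 in control mice), or 11.5-fold in control mice with the floor applied. To apply the floor, here and below, every array of the dim group was raised to at least the highest trp reading, 6.51. Such a fold allows for the floor alone, and sampling error or other probe sets can give smaller ones. Its 4 probe sets all had negative differences, from -3.58 to -1.19 in control mice.

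The hexokinases, which phosphorylate glucose in the first step of glycolysis, were all higher in the CCR2+ arrays. Hk1, a mitochondria-bound form found in most tissues, read 10.45, 9.66, 9.98 and 10.05 in CCR2+ control arrays and 8.90, 8.62, 8.37 and 8.78 in CCR2- control arrays. The RbpjiΔEC arrays read 10.62, 10.56, 9.76 and 9.54 against 9.58, 8.75, 9.11 and 8.90. There the lowest CCR2+ array fell just below the highest CCR2- array, while in control mice the labels were separate. Hk1 differed by 1.36 (SE 0.24, adjusted p = 0.000226) in control and 1.04 (adjusted p = 0.00251) in RbpjiΔEC mice.

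Hk2, the inducible hexokinase and a HIF target, read 10.20, 9.28, 9.43 and 9.34 in CCR2+ control arrays and 8.67, 8.29, 8.44 and 8.55 in CCR2- control arrays. The groups did not overlap, with CCR2+ Control 1 well above its companions. The difference was 1.08 (SE 0.19, adjusted p = 0.000174), and 1.16 (adjusted p = 8.35e-05) in RbpjiΔEC mice. Hk3, a hexokinase of myeloid cells, ranged from 9.64 to 10.03 in CCR2+ control arrays and from 8.18 to 8.66 in CCR2- control arrays. It differed by 1.45 (SE 0.13, adjusted p = 9.27e-08) in control and 1.47 in RbpjiΔEC mice.

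At the phosphofructokinase step, which commits sugar to glycolysis, 2 of 5 genes were higher and 1 lower in each genotype, a called share of 60% against 40.8% of all genes in control and 39.1% in RbpjiΔEC mice. Pfkl, the liver-type subunit, read 11.58, 10.86, 10.91 and 11.38 in CCR2+ control arrays and 9.60, 9.47, 9.37 and 9.54 in CCR2- control arrays. All CCR2+ arrays lay above all CCR2- arrays. Its difference was 1.68 (SE 0.16, adjusted p = 2.09e-07) in control and 1.46 in RbpjiΔEC mice, with 3 probe sets from 0.36 to 2.13 in control mice.

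Pfkm, the muscle-type subunit, differed by 0.74 (SE 0.11, adjusted p = 2.72e-05) in control and 0.58 in RbpjiΔEC mice, without overlap in either. Pfkp, the platelet-type subunit, read 10.75 ± 0.13 in CCR2+ and 10.79 ± 0.08 in CCR2- control arrays (SD, n = 4 each). Its difference of -0.03 had a 95% interval from -0.21 to 0.14, and its probe sets disagreed in sign, from -0.07 to 0.40. Under median centring Pfkp became 0.43 (adjusted p = 0.0266) in control mice, so its place between the labels depends on the scaling.

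The bifunctional enzymes that make or remove fructose bisphosphate signals for phosphofructokinase gave other values than the subunits. Pfkfb4 read 8.74, 8.90, 8.98 and 9.20 in CCR2+ control arrays and 9.82, 10.05, 9.75 and 9.96 in CCR2- control arrays. It was lower in the CCR2+ arrays without overlap, by -0.94 (SE 0.10, adjusted p = 7.24e-07) in control and -0.87 in RbpjiΔEC mice. Without normalization between arrays the latter was -0.40 (adjusted p = 0.0826). Pfkfb3 differed by -0.41 (SE 0.16, adjusted p = 0.0577) and -0.32 (adjusted p = 0.148), and its dimmer probe set by 0.34 and 0.54. CCR2+ RbpjiΔEC 3 reached 10.60 for Pfkfb3 against 9.57 to 9.98 in its companions, and without that array the difference in RbpjiΔEC mice was -0.51 (adjusted p = 0.00594).

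In lower glycolysis 5 of 8 genes were higher and 2 lower in control mice, and 3 and 2 in RbpjiΔEC mice. That is 87.5% and 62.5% called, against 40.8% and 39.1% of all genes. Pkm, pyruvate kinase of most tissues, read 11.13, 10.35, 10.76 and 10.96 in CCR2+ control arrays and 10.01, 10.16, 9.78 and 10.18 in CCR2- control arrays. Its lowest CCR2+ array lay just above the highest CCR2- array. It differed by 0.77 (SE 0.17, adjusted p = 0.00135) in control and 0.62 (adjusted p = 0.00726) in RbpjiΔEC mice.

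Pgam1, phosphoglycerate mutase, ranged from 10.90 to 11.83 in CCR2+ control arrays and from 10.36 to 10.55 in CCR2- control arrays, a difference of 0.69 (SE 0.21, adjusted p = 0.0128). In RbpjiΔEC mice its difference was 0.55 (adjusted p = 0.0451). Leaving out CCR2+ RbpjiΔEC 1 or 4 or any of the 4 CCR2- RbpjiΔEC arrays ended that call, at 0.36 (adjusted p = 0.162) without CCR2+ RbpjiΔEC 1. Gapdh, glyceraldehyde phosphate dehydrogenase, was read by the array's own control probe set and differed by 0.35 (adjusted p = 0.00495) in control and 0.23 (adjusted p = 0.0486) in RbpjiΔEC mice. The latter call ended without CCR2+ RbpjiΔEC 2, 3 or 4 or any of the 4 CCR2- RbpjiΔEC arrays, at 0.18 (adjusted p = 0.151) without CCR2+ RbpjiΔEC 2.

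Aldoa, the main aldolase, differed by 0.39 (adjusted p = 0.00685) in control mice and 0.16 (adjusted p = 0.246) in RbpjiΔEC mice, and its 5 probe sets ranged from -0.13 to 0.50 in control mice. Tpi1, triose phosphate isomerase, differed by 0.47 (adjusted p = 0.0142) and 0.19 (adjusted p = 0.331), and in control mice by 0.39 (adjusted p = 0.0539) without CCR2- Control 3. Leaving out both CCR2- Control 1 and 3 gave control differences of 0.28 for Aldoa, 0.24 for Tpi1, 0.23 for Gapdh and 0.72 for Pgam1. The adjusted p were 0.0953, 0.27, 0.1 and 0.0562, so all 4 calls ended. These arrays, left out after seeing the data, were the lowest of their group for Aldoa, Tpi1 and Gapdh. Leaving them out had to shrink those differences. The Pgam1 difference did not shrink from its 0.69, and its call ended on fewer arrays.

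Pgk1, phosphoglycerate kinase, read 12.40 ± 0.19 in CCR2+ and 12.54 ± 0.10 in CCR2- control arrays (SD, n = 4 each). Its difference was -0.15, with a 95% interval from -0.36 to 0.07. Aldoc, the aldolase best known from brain, ran opposite to Aldoa, at 7.0, 6.85, 7.16 and 7.47 in CCR2+ control arrays and 8.65, 8.56, 8.50 and 9.29 in CCR2- control arrays. The labels did not overlap, and Aldoc was lower by -1.63 (SE 0.20, adjusted p = 4.48e-06) in control and -1.77 in RbpjiΔEC mice. Eno2, the neuronal enolase, differed by -0.55 (adjusted p = 0.000442), with CCR2+ control arrays at 6.62 to 6.96, near the floor. In RbpjiΔEC mice its call ended without normalization between arrays, at -0.33 (adjusted p = 0.11).

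**Figure D2:**
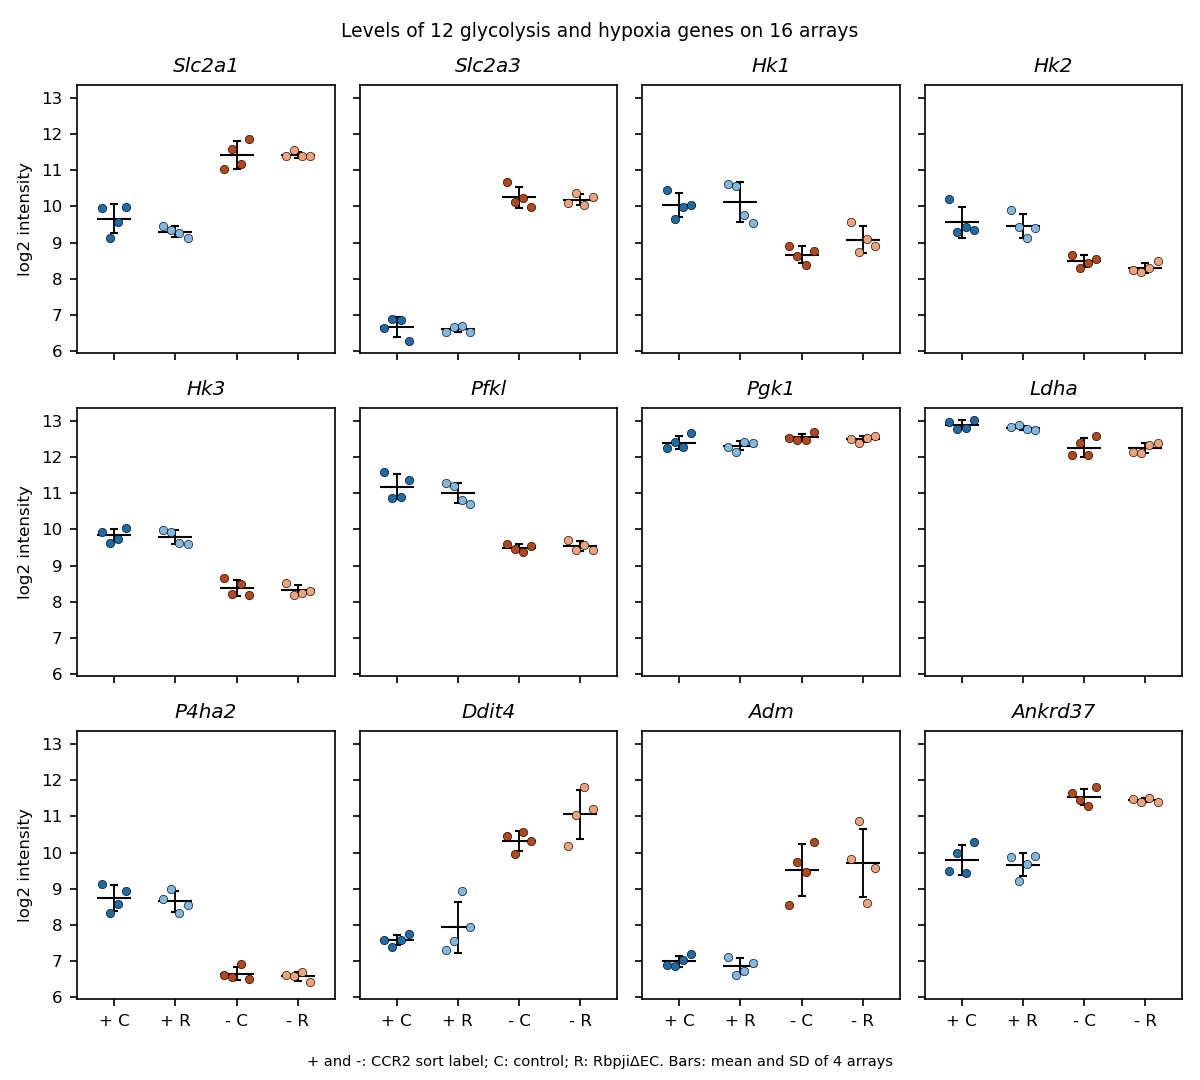
Log2 intensity of 12 of the genes on the 16 arrays, by sort label (+ or -) and genotype (C control, R RbpjiΔEC). Dots are arrays and bars are mean and SD of 4 arrays. Slc2a3, Ddit4 and Adm are lower in all CCR2+ than in all CCR2- arrays, Hk2, Hk3 and P4ha2 are higher, and Pgk1 lies between 12.15 and 12.69 throughout.

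Of 4 genes of pyruvate and lactate handling 3 were higher in the CCR2+ arrays of each genotype, and 1 was lower in RbpjiΔEC mice. That is 75% called in control and 100% in RbpjiΔEC mice, against 40.8% and 39.1% of all genes. Ldha, the lactate dehydrogenase subunit that favours lactate formation, read 12.98, 12.78, 12.79 and 13.03 in CCR2+ control arrays and 12.05, 12.38, 12.05 and 12.57 in CCR2- control arrays. The labels were separate in both genotypes, by 0.64 (SE 0.12, adjusted p = 0.000285) in control and 0.56 (adjusted p = 0.000884) in RbpjiΔEC mice. Slc16a3, the lactate exporter MCT4, ranged from 8.90 to 9.67 in CCR2+ control arrays and from 7.79 to 8.32 in CCR2- control arrays. It was higher without overlap, by 1.21 (SE 0.18, adjusted p = 4.16e-05) in control and 1.10 in RbpjiΔEC mice.

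Pdk1, the kinase that shuts pyruvate dehydrogenase in hypoxia, read 10.17, 10.67, 10.25 and 10.66 in CCR2+ control arrays and 9.11, 9.52, 9.44 and 9.60 in CCR2- control arrays. It was higher by 1.02 (SE 0.14, adjusted p = 1.48e-05) in control and 1.07 in RbpjiΔEC mice, and its 4 probe sets ranged from 0.08 to 1.26 in control mice and, with both signs, from -0.18 to 1.30 in RbpjiΔEC mice. Slc16a1, the transporter MCT1 that carries lactate both ways, read 8.47 ± 0.26 and 8.46 ± 0.21 in control mice (SD, n = 4 each), a difference of 0.01 with a 95% interval from -0.29 to 0.31. In RbpjiΔEC mice it was lower in the CCR2+ arrays by -0.40 (adjusted p = 0.0326), and under median centring by -0.33 (adjusted p = 0.108). Leaving out array 1, 3 or 4 of the CCR2+ RbpjiΔEC group, or array 1, 2 or 3 of the CCR2- RbpjiΔEC group, ended that call, with adjusted p up to 0.0917, reached without CCR2- RbpjiΔEC 3. The difference between the genotypes, -0.41 (SE 0.20), did not pass (limma adjusted p = 0.999).

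Among the oxygen sensing genes, the prolyl hydroxylase gene Egln3 had the largest measured difference of all 35. Egln3 encodes PHD3, itself a HIF target, and read 10.93, 10.90, 10.96 and 10.75 in CCR2+ control arrays and 6.44, 6.87, 7.05 and 6.85 in CCR2- control arrays. In RbpjiΔEC mice it read 11.13, 10.21, 10.14 and 10.96 against 6.71, 6.57, 7.05 and 7.27. The CCR2- arrays lay near the floor, and no CCR2+ array fell below 10.14. The difference was 4.08 (SE 0.21, adjusted p = 8.77e-11), or 16.7-fold with the floor applied, in control mice. In RbpjiΔEC mice it was 3.71, or 13.1-fold with the floor applied. The other probe set differed by 3.30 in control and 3.20 in RbpjiΔEC mice.

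Egln1, which encodes PHD2, the main oxygen sensor, differed by 0.46 (SE 0.15, adjusted p = 0.0182) in control mice and 0.38 (adjusted p = 0.0477) in RbpjiΔEC mice. In control mice the call ended without CCR2+ Control 1, at 0.35 (adjusted p = 0.0696), or CCR2- Control 4, at 0.38 (adjusted p = 0.0588). In RbpjiΔEC mice it ended without CCR2+ RbpjiΔEC 1 or 2 or any of the 4 CCR2- RbpjiΔEC arrays, at 0.27 (adjusted p = 0.163) without CCR2+ RbpjiΔEC 1. Hif1a, the oxygen-regulated HIF-1 subunit, was lower in the CCR2+ arrays by -0.40 (SE 0.09, adjusted p = 0.00179) in control and -0.39 (adjusted p = 0.00252) in RbpjiΔEC mice under quantile normalization, with negative differences at all 4 probe sets. Its sign turned to 0.15 and 0.01 under median centring, so its direction depends on the scaling.

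Outside the 35 genes, 14 genes of HIF subunits and regulators were measured, of which 2 were higher and 7 lower in control mice and 1 and 7 in RbpjiΔEC mice. The called shares were 64.3% in control and 57.1% in RbpjiΔEC mice, against 40.8% and 39.1% of all genes. Epas1, which encodes HIF-2 alpha, the other oxygen-regulated subunit, read 12.46, 12.34, 12.48 and 11.72 in CCR2+ control arrays and 7.45, 7.10, 7.61 and 7.34 in CCR2- control arrays. The labels were far apart, by 4.87 (SE 0.20, adjusted p = 5.72e-12) in control and 4.68 in RbpjiΔEC mice, and the dimmer probe set differed by 3.09 and 2.87. Vhl, whose product marks HIF for destruction, differed by -0.65 (SE 0.12, adjusted p = 0.000252) and -0.67, while its dimmer probe set differed by 0.10 and 0. Egln2, which encodes PHD1, was lower by -0.49 (adjusted p = 0.000273) and -0.81 (adjusted p = 1.19e-06). Arnt, the constant HIF partner, differed by -0.09 (adjusted p = 0.799) in control mice, while its other probe sets differed by 0.67, 0.73, 0.65 and -0.11.

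**Figure D3:**
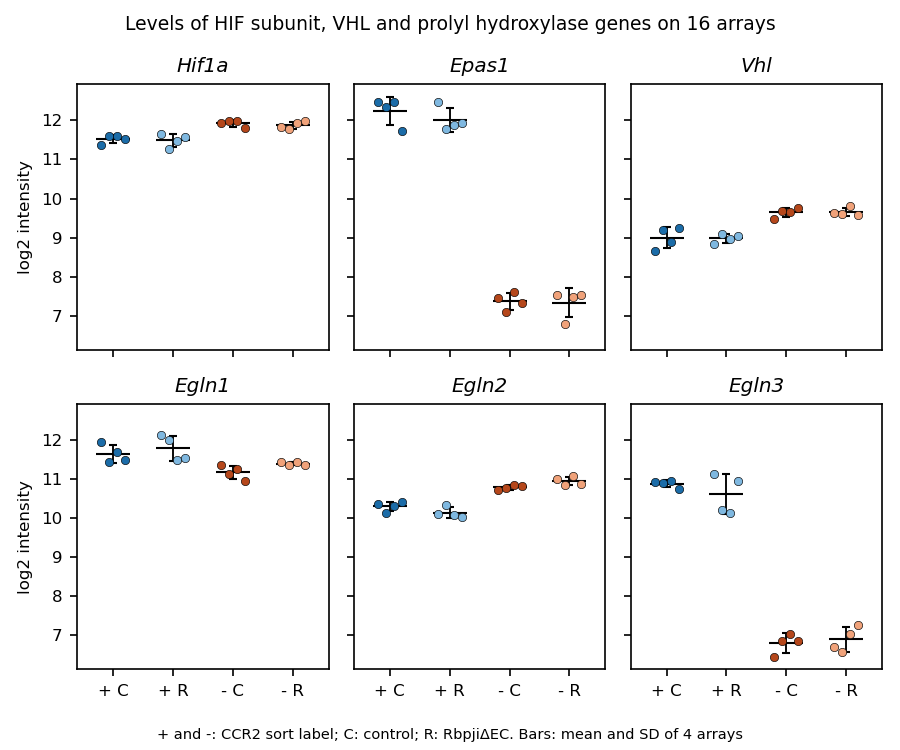
Log2 intensity of Hif1a, Epas1, Vhl and the 3 prolyl hydroxylase genes on the 16 arrays, by sort label (+ or -) and genotype (C control, R RbpjiΔEC). Dots are arrays and bars are mean and SD of 4 arrays. Epas1 and Egln3 read at least 10.14 on every CCR2+ array and at most 7.61 on every CCR2- array, while the other genes differ by at most 0.81 between the label means.

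The 10 measured hypoxia-induced genes went both ways, with 4 higher and 4 lower in control mice and 3 higher and 5 lower in RbpjiΔEC mice. In each genotype 80% were called, against 40.8% of all genes in control and 39.1% in RbpjiΔEC mice. P4ha2, a collagen prolyl hydroxylase subunit, read 9.14, 8.32, 8.59 and 8.95 in CCR2+ control arrays and 6.62, 6.55, 6.91 and 6.51 in CCR2- control arrays. The CCR2- arrays sat near the floor. The difference was 2.10 (SE 0.17, adjusted p = 2.44e-08) in control and 2.07 in RbpjiΔEC mice, or 4.30-fold and 4.13-fold with the floor applied.

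P4ha1, another subunit gene of that enzyme family, read 10.73, 10.06, 10.21 and 10.54 in CCR2+ control arrays and 9.11, 8.87, 8.68 and 8.82 in CCR2- control arrays. It was higher without overlap, by 1.51 (SE 0.24, adjusted p = 7.79e-05). Bnip3, which drives the removal of mitochondria in hypoxia, read 9.85, 10.69, 10.04 and 10.40 against 9.07, 8.83, 9.12 and 8.84. It was higher by 1.28 (SE 0.21, adjusted p = 9.49e-05) in control and 1.12 in RbpjiΔEC mice, with no overlap in either. Higd1a, a mitochondrial protein gene induced by hypoxia, differed by 0.45 (adjusted p = 0.0404) and 0.43 (adjusted p = 0.0522). Leaving out CCR2+ Control 1, 2 or 4 or CCR2- Control 1, 2 or 3 ended its call in control mice, at 0.32 (adjusted p = 0.145) without CCR2+ Control 4.

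Ddit4, which encodes REDD1, an inhibitor of mTOR signalling raised by hypoxia, glucocorticoids and stress, was far lower in the CCR2+ arrays. It read 7.59, 7.40, 7.59 and 7.74 in CCR2+ control arrays and 10.45, 9.95, 10.56 and 10.31 in CCR2- control arrays. In RbpjiΔEC mice it read 7.32, 7.57, 8.93 and 7.94 against 10.18, 11.03, 11.80 and 11.20. The RbpjiΔEC arrays were more spread than the control arrays, yet the labels did not overlap in either genotype. The difference was -2.74 (SE 0.32, adjusted p = 2.44e-06), or 6.67-fold, in control and -3.11 (adjusted p = 5.33e-07), or 8.66-fold, in RbpjiΔEC mice.

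Adm, which encodes the vasodilator peptide adrenomedullin, read 6.90, 6.87, 7.02 and 7.19 in CCR2+ control arrays and 8.55, 9.75, 9.47 and 10.29 in CCR2- control arrays. In RbpjiΔEC mice it read 7.11, 6.61, 6.74 and 6.96 against 9.82, 10.87, 8.60 and 9.56. The CCR2+ arrays lay near the floor, and the CCR2- arrays were widely spread in both genotypes. Adm differed by -2.52 (SE 0.38, adjusted p = 3.92e-05) and -2.86, and its other probe set by -1.41 and -1.48.

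Ankrd37, a HIF target, read 9.48, 9.99, 9.43 and 10.29 in CCR2+ control arrays and 11.64, 11.45, 11.29 and 11.80 in CCR2- control arrays. It differed by -1.75 (SE 0.18, adjusted p = 7.55e-07) and -1.77, with all 8 CCR2+ arrays below all 8 CCR2- arrays. Mif, a cytokine gene, differed by -0.51 (adjusted p = 0.0117) and -0.66 (adjusted p = 0.00209), with 3 probe sets from -0.51 to 0.12 in control mice. Under median centring Mif differed by -0.11 (adjusted p = 0.699) and -0.37 (adjusted p = 0.168). Ndrg1, a stress-induced gene, differed by -0.22 (adjusted p = 0.171) and -0.52 (adjusted p = 0.00285), the latter -0.18 (adjusted p = 0.47) without normalization between arrays. Kdm3a, a histone demethylase gene, differed by 0.05 (95% interval from -0.22 to 0.32) in control mice, and by 0.54 (adjusted p = 0.00976) under median centring.

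Of 34 other hypoxia-induced genes 12 were higher and 6 lower in CCR2+ control arrays, 52.9% called against 40.8% of all genes. Rora, a nuclear receptor gene, differed by 2.12 (SE 0.14), with other probe sets from -0.03 to 2.45, and Cxcr4, a chemokine receptor gene, by -2.89 (SE 0.25). Pim1, a kinase gene, differed by -2.28, although its dimmer probe set differed by -0.15. Vegfa, a classical HIF target, differed by -0.45 (SE 0.28, adjusted p = 0.227), and by -0.73 (adjusted p = 0.0336) without CCR2- Control 4. Of 20 other glycolytic isoenzymes and transporters 7 were higher and 3 lower, 50% against the same 40.8%, among them Slc2a6 at 1.54 (SE 0.15) and Slc2a8 at 1.05 (SE 0.10), both glucose transporter genes. Tigar, whose product lowers glycolytic flux, differed by -0.67 (SE 0.15).

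Of 16 genes of glycogen and gluconeogenesis 6 were higher and 4 lower in CCR2+ control arrays, 62.5% called against 40.8% of all genes. Pygl, a glycogen phosphorylase, differed by 3.79 (SE 0.17, adjusted p = 1.62e-11), and Gbe1, the glycogen branching enzyme, by 2.74 (SE 0.18, adjusted p = 2.06e-09). G6pc3, a glucose phosphatase gene, differed by -1.39 and Pck2, the mitochondrial phosphoenolpyruvate carboxykinase, by -1.19. Of 10 pentose phosphate genes 2 were higher and 1 lower, 30% and so below the 40.8% of all genes, with Pgd, a dehydrogenase of the oxidative branch, at 0.98 and Prps2, a phosphoribosyl pyrophosphate synthetase, at -1.34.

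Of 29 genes of pyruvate entry and the citric acid cycle 7 were higher and 2 lower in CCR2+ control arrays, 31% of them against 40.8% of all genes. Pdk4, the pyruvate dehydrogenase kinase of fasting, was 8.67-fold higher with the floor applied (adjusted p = 2.71e-08). Its CCR2- control arrays read 6.10 to 6.45, all at or under the highest trp reading, against a mean of 9.63 in CCR2+ control arrays. Pdha1, a subunit gene of pyruvate dehydrogenase, differed by 0.64 (SE 0.10). Cs, citrate synthase, differed by -0.38 (adjusted p = 0.00824) under quantile normalization, and by 0.18 under median centring.

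The genotype comparison asks whether loss of Rbpj in endothelial cells changes these genes in the sorted cells. In neither label did any of the 35 genes pass limma's adjusted p of 0.05, and 0% of all genes did. At an unadjusted limma p under 0.05 there were 0 of the 35 genes and 830 of all genes in the CCR2+ arrays, and 1 and 390 in the CCR2- arrays, where 910 of all genes are expected by chance. Rbpj itself read 11.36 ± 0.16 and 11.42 ± 0.29 in CCR2+ control and RbpjiΔEC arrays and 10.44 ± 0.23 and 10.35 ± 0.21 in the CCR2- arrays (SD, n = 4 each), which does not check a deletion made in other cells. The 95% intervals of the 35 genes had a median half-width of 0.32, and they lay within a 2-fold change either way for 34 genes in the CCR2+ arrays and 33 in the CCR2- arrays.

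In the CCR2+ arrays 29 of the 35 differences, RbpjiΔEC minus control, were negative, with a median of -0.11 against -0.01 for all genes, of which 52.5% were negative. They ran from -0.36 (SE 0.19) for Slc2a1 to 0.36 for Ddit4. All 4 genes of lactate and pyruvate fate, 7 of 8 of lower glycolysis and 8 of 10 hypoxia-induced genes were negative, none past the test. Without CCR2+ Control 4, 25 were negative and the median was -0.05. Tpi1 was the one gene of the 35 whose groups did not overlap, at 11.16, 11.06, 11.04 and 11.69 in CCR2+ control arrays and 10.97, 10.96, 11.00 and 10.94 in CCR2+ RbpjiΔEC arrays. Its difference was -0.27 (SE 0.14, adjusted p = 0.966), and 3.39% of all genes were separated in this way.

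Marker lists of other cells went both ways in the same CCR2+ comparison, none past the test, and their part in it was not tested. Differences were negative for 10 of 10 neutrophil markers, whose summed intensity was 2282 to 4565 in control and 2292 to 2727 in RbpjiΔEC arrays. CCR2+ Control 2 lay above its group mean for 8 of these 10, with a median deviation of 0.72 over the 10. CCR2+ Control 1, 3 and 4 each did so for 1. Differences were also negative for 11 of 12 tumour epithelial and mesothelial markers, with sums of 2033 to 3159 and 1685 to 2341, and Cdh1 was at or under the trp control in both groups. They were negative for 9 of 11 cell cycle genes, with sums of 8698 to 15517 and 9889 to 10544. They were positive for 9 of 10 endothelial, 7 of 8 erythroid and platelet and 7 of 9 dendritic cell markers, and negative for 9 of 20 large peritoneal macrophage markers, 7 of 13 T and NK cell markers and 8 of 16 B cell markers.

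In the CCR2- arrays 18 of the 35 differences were negative, with a median of -0.01, and 50.9% of all genes were negative. Ddit4 had the largest, 0.74 (SE 0.32, limma unadjusted p = 0.0347, adjusted p = 1). Its groups overlapped, since CCR2- RbpjiΔEC 1 at 10.18 lay within the control range of 9.95 to 10.56 and the other 3 arrays lay above it. Egln1 was the one gene without overlap, at 11.36 to 11.43 in CCR2- RbpjiΔEC arrays and 10.96 to 11.35 in CCR2- control arrays, a difference of 0.22 (adjusted p = 1), and 1.56% of all genes were so separated. In the CCR2- arrays 10 of 10 neutrophil markers also had negative differences, with a median of -0.65 and sums of 1177 to 6896 in control and 1193 to 1367 in RbpjiΔEC arrays. CCR2- Control 2 lay above its group mean for all 10 of them, by a median of 1.18. Large peritoneal macrophage markers were negative in 16 of 20, with a median of -0.10. An unadjusted limma p under 0.05 was reached by 3 of these 20 and by 4 of the 10 neutrophil markers. The genotype difference in CCR2+ minus that in CCR2- arrays passed for 0 of the 35 genes and 0% of all genes, with 0 and 555 at an unadjusted limma p under 0.05. The genotype and label comparisons use the same arrays, so their values are not independent of each other.

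**Figure D4:**
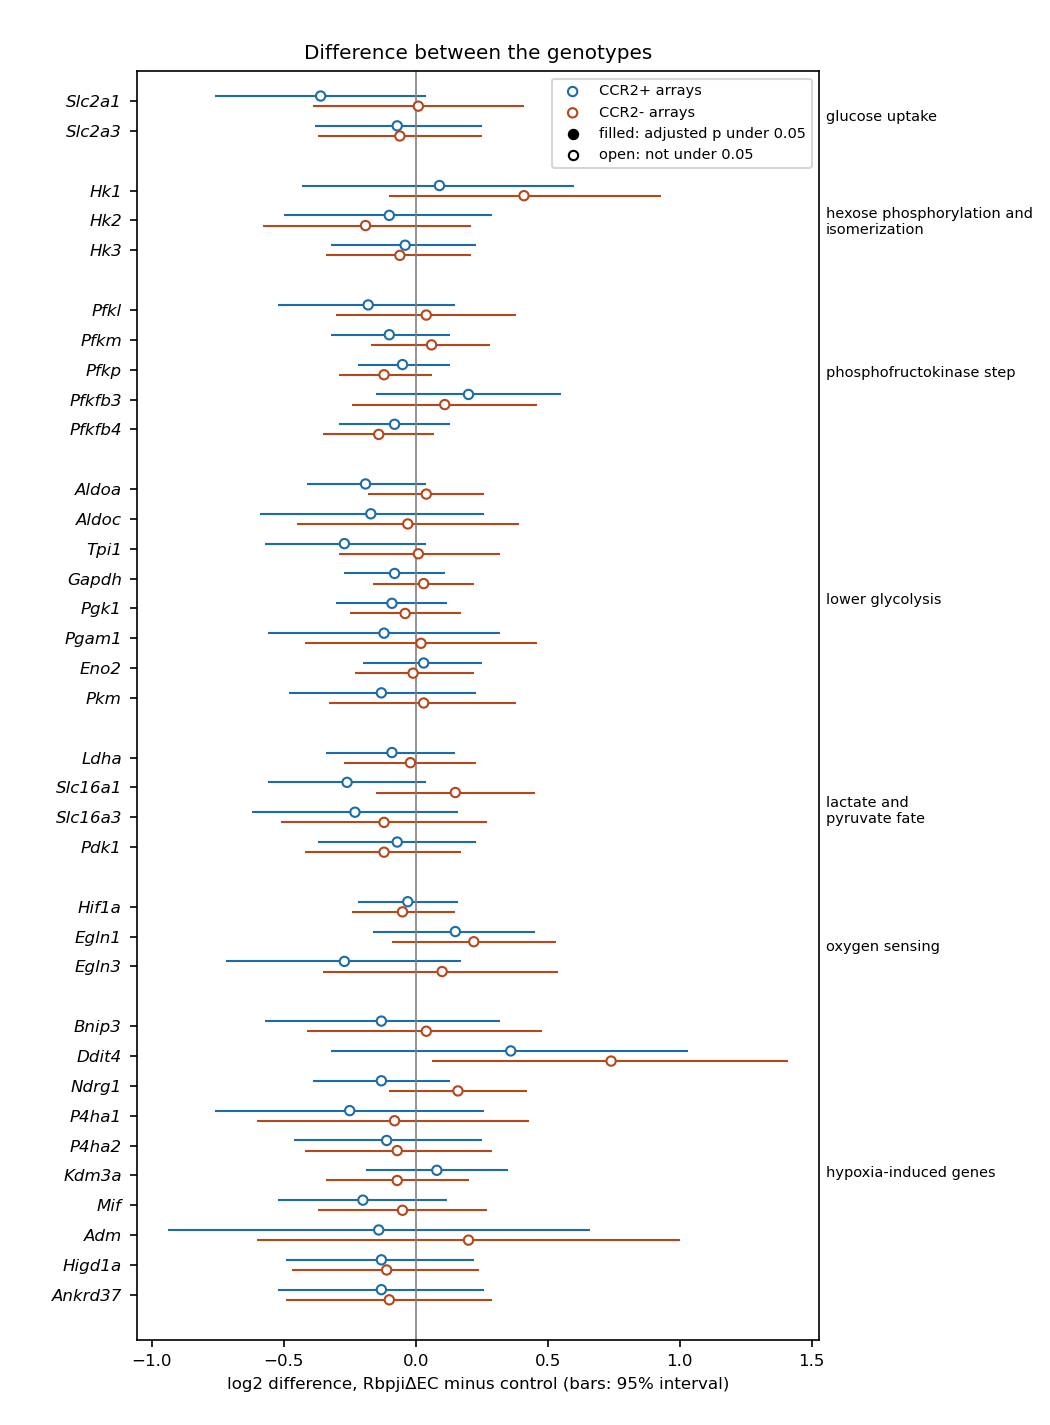
Log2 difference between RbpjiΔEC and control for the 35 genes, in CCR2+ and in CCR2- arrays. Points are differences of means over 4 arrays a group, and bars are 95% intervals from limma. All points are open because none passed an adjusted p of 0.05, and 29 of the 35 CCR2+ points lie left of 0.

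Within groups, some arrays stood off from their companions across many of these genes. CCR2+ Control 4 lay above its group mean for 29 of the 35 genes, among them 10 of 10 hypoxia-induced genes and 7 of 8 genes of lower glycolysis. The same array lay above its group mean for 11 of 11 cell cycle genes, by a median of 0.83, and for 11 of 12 tumour epithelial and mesothelial markers, and above it for 5 of 20 large peritoneal macrophage markers, with a median of -0.13. CCR2- Control 4 lay above its group mean for 23 of the 35 genes, 7 of 8 genes of lower glycolysis, 11 of 11 cell cycle genes and 11 of 12 tumour epithelial and mesothelial markers. It lay above it for 16 of 20 large peritoneal macrophage markers, with a median of 0.25. Without both of these arrays, a setting added after seeing the data, 18 of the 35 genes were higher and 10 lower between labels in control mice. No count of all genes is given here for that setting. The part of these other lists in the levels of the 35 genes was not tested.

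The median SD between arrays of a group was 0.239 for the 35 genes and 0.163 for all genes in the CCR2+ control group, and 0.135 and 0.146 in the CCR2- RbpjiΔEC group. Adm varied most of the 35 in both CCR2- groups, with SDs of 0.73 in control and 0.94 in RbpjiΔEC mice. Ddit4 varied most in the CCR2+ RbpjiΔEC group, with an SD of 0.71, and Pgam1 in the CCR2+ control group, with 0.44.

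**Figure D5:**
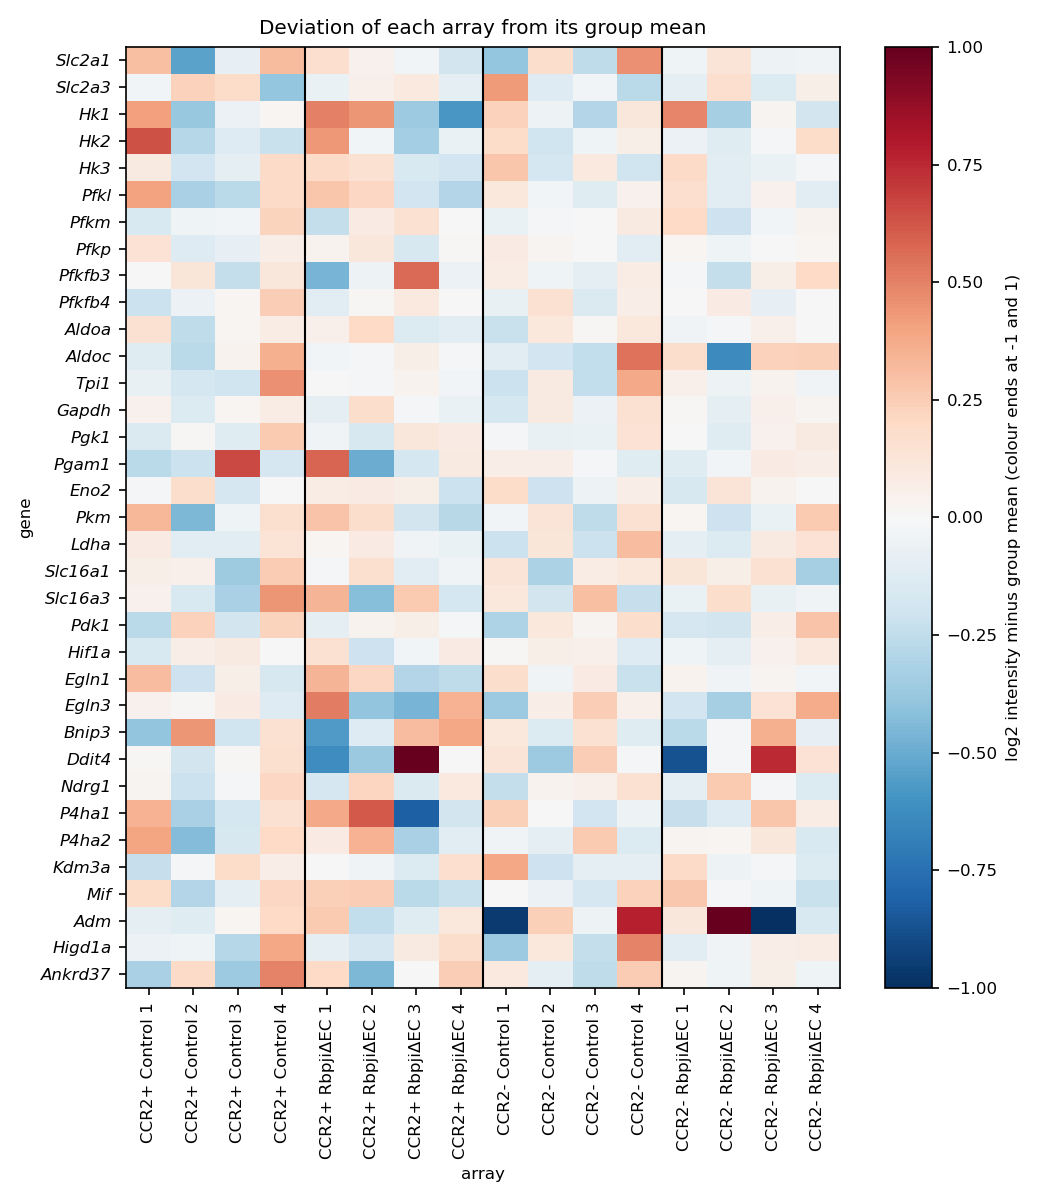
Log2 intensity of each of the 35 genes on each array minus the mean of its group of 4, with the colour scale ending at -1 and 1. In the CCR2+ Control 4 column 29 of 35 genes are above the group mean.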

How the data were processed

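The authors deposited linear probe set intensities for 16 Affymetrix arrays. The sources used here do not give how these were computed. The intensities were put on the log2 scale and quantile normalized over all arrays. Probe sets were named through GEO's platform annotation: 34958 carried 1 symbol and were used, 1 per gene, 932 carried several and 9211 had none or were not listed.

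A limma fit (version 3.58.1, R 4.3.3) with a mean for each of the 4 groups gave the differences and tests, over all 18194 genes and with no intensity filter. The members, gene lists and tests were chosen with earlier results of these data known. All members could be named, as could up to 4 called genes per pathway list and comparison (at most 2 per direction, smallest p first), up to 3 markers per cell marker list, and Rbpj, Ccr2, Adgre1, Itgam, Gata6, Cd79a, Vegfa, Epas1, Arnt and Vhl. Fcmr and Cdh1, at the floor, and Slc2a2, Slc2a4, Slc2a5 and Slc2a9 were named after their values were seen.

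Deviations of same-numbered CCR2+ and CCR2- arrays correlated at -0.0316 to 0.403 in control and 0.0406 to 0.241 in RbpjiΔEC mice. Between genotypes they correlated at -0.38 to 0.151 in CCR2+ and -0.0959 to 0.194 in CCR2- arrays. No comparison had all 4 pairs over 0.1, and the labels state no shared mouse, so numbers were not treated as pairs. In simulated data with independent normal noise, 50 of the 18194 genes were changed at each of 0.5, 1, 1.5 and 2 log2 units together. Between genotypes in the CCR2+ arrays limma recovered 46% of those changed by 0.5 and 96% of those changed by 1. Many planted changes ease the Benjamini-Hochberg cutoff, so these rates do not carry over to the measured genotype comparison, where 0 genes passed. Alternatives were other scalings, probe set choices, array weights, a filter on dim genes, a replicate block and leaving out arrays. The number of arrays limits the precision.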

Additional observations from a re-analysis of the deposited data

Results flagged for a closer look

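In 8 of the 140 sets of 4 arrays examined (35 genes in 4 groups), 1 array stood apart from its companions by Dixon's criterion at its 95% critical value, and chance gives about 1 in 20. CCR2- RbpjiΔEC 2 was such an array for 3 genes. It read 11.55 for Slc2a1 against 11.38 to 11.39 in the others, 8.08 for Aldoc against 8.89 to 8.95, and 8.07 for Slc16a3 against 7.82 to 7.86. In the CCR2+ control group Hk2 read 10.20 in array 1 against 9.28 to 9.43, and Pgam1 read 11.83 in array 3 against 10.90 to 11.00. In the CCR2+ RbpjiΔEC group Aldoc read 7.01 in array 3 against 6.93 in the others, and Eno2 read 6.60 in array 4 against 6.86 to 6.89, both near the floor of the scale. Slc16a1 read 8.14 in CCR2- Control 2 against 8.53 to 8.59.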

How the results depend on the processing

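Of the 29 calls between labels in control mice 21 kept their direction and their side of the threshold in every setting tried, and of the 28 in RbpjiΔEC mice 19 did. The 8 others in control mice were Aldoa, Tpi1, Gapdh, Pgam1, Hif1a, Egln1, Mif and Higd1a. The 9 others in RbpjiΔEC mice were Pfkfb4, Gapdh, Pgam1, Eno2, Slc16a1, Hif1a, Egln1, Ndrg1 and Mif. The causes of the changes below were not tested. Under median centring Pfkp became 0.43, Hif1a 0.15 and Cs 0.18 in control mice, and Hif1a 0.01 in RbpjiΔEC mice. Without normalization between arrays the median of all genes moved to 0.23 between labels in RbpjiΔEC mice and to -0.16 between genotypes in CCR2- arrays. The label medians of the 35 genes moved to 0.89 in control and 0.84 in RbpjiΔEC mice. For the 0.89 no median of all genes is given here. Pfkp then became 0.49, Hif1a 0.20 and Cs 0.24 in control mice, and Pgk1 0.46, Hif1a 0.30 and Cs 0.24 in RbpjiΔEC mice. In RbpjiΔEC mice 22 of the 35 genes were then higher and 6 lower, with 5689 and 1197 of all genes, and in control mice 4584 and 1730 of all genes. The median genotype difference of the 35 genes became -0.13 in the CCR2- arrays, and that of the interaction 0.01. With the mean of all probe sets Arnt became 0.37 in control and 0.25 in RbpjiΔEC mice. With the probe set of largest variance Arnt became 0.67 and 0.62, Pfkp 0.40 in control mice and Pfkfb3 0.54 in RbpjiΔEC mice. Leaving out each array in turn gave 17 to 19 of the 35 genes higher and 10 lower in control mice. Of all genes 3232 to 3515 were then higher and 3520 to 3859 lower. In RbpjiΔEC mice 13 to 15 of the 35 were higher and 11 to 12 lower, with 3029 to 3232 and 3443 to 3740 of all genes. Between genotypes 0 of the 35 passed. Between labels 3 of 4 arrays in each genotype correlated best with their own number, a hint from the data, not the design. With the replicate number as a block Gapdh in RbpjiΔEC mice lost its call (limma adjusted p = 0.0916), and Pfkfb3 in control mice (0.0402) and Higd1a in RbpjiΔEC mice (0.00386) gained one.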
